A study of Rattus norvegicus with 8 samples.

Results

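The interaction of fear training and epileptogenesis was read from all 8 arrays of the series, since every array enters it. The quantity is a double difference on the log2 scale: paired minus unpaired training in epileptogenic rats, minus paired minus unpaired training in control rats. A positive value therefore means that the signal after paired training, relative to unpaired training, was higher in epileptogenic than in control rats, and 1 unit is a ratio of ratios of 2. Unless said otherwise, every positive or negative value below is this double difference, and a signal is the linear MAS5 value of a probe set.

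The tissue was the rat basolateral amygdala, with the lateral and basal nuclei of the stimulated side cut out together by laser microdissection. Control rats carried the electrode but were not stimulated. Epileptogenic rats had a status epilepticus induced by amygdala stimulation, with at least 40 high-amplitude discharges in its first 3 h, and showed no spontaneous seizures during the study. All rats were habituated to the conditioning box from day 5 in 5 sessions of 10 min. On day 8 all received 2 tones of 75 dB and 20 s and 2 footshocks of 1.5 mA and 1 s. In paired rats the shock ended with the tone, and in unpaired rats it came before the tone. The tissue was taken 3 h later. The 4 groups were unpaired control, paired control, unpaired epileptogenic and paired epileptogenic rats, each with 2 arrays lettered A and B, and each array held amplified RNA pooled from 2 rats, so that 16 rats are represented. No group was left untrained or without shock, so that "unpaired" is a trained and shocked comparison, and the controls share the operation with the epileptogenic rats. Per the labels, arrays of a group are biological replicates, and the meaning of the letters is not given.

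In auditory fear conditioning, tone and shock inputs converge on glutamatergic principal neurons of the lateral and basal nuclei. Consolidation of the memory is known to need NMDA receptors, calcium-activated kinases, CREB-dependent transcription and new protein synthesis, and immediate early genes such as Fos, Arc and Egr1 mark recently activated neurons. Epileptogenesis, the period between a brain insult and spontaneous seizures, is known for astrocyte and microglial activation, loss of neurons and altered channel and receptor expression in the same circuits. The double difference asks whether the transcript response to the tone-shock pairing differs once epileptogenesis is under way.

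Tissue markers were read first. Gad1 (glutamate decarboxylase) had signals between 1490 and 4690 and Lmo3 (an amygdala-enriched transcription cofactor) between 454 and 1460, whereas the probe set of Slc17a7 (vesicular glutamate transporter of cortical-type neurons) was dim at 15.8 to 59.2 and that of Tbr1 lay below the filter on dim probe sets. Ttr, a choroid plexus transcript, ranged from 151 to 5070, which shows an uneven content of this non-amygdala RNA across arrays. Markers of striatal and central amygdala neurons, and of the meninges, also differed between arrays, and are given below beside the results they move with. In bulk tissue, fewer cells of a type and less RNA per cell cannot be told apart. Median signals per array were 29.0 to 43.2, and Pearson correlations between arrays were 0.851 to 0.925, both over all 31099 probe sets before the filter. The number of arrays limits the precision.

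No gene passed the test for an interaction. Limma with the letter as a block, adjusted by Benjamini-Hochberg over 18625 probe sets at 0.05, called 0 probe sets (0%). The smallest adjusted p was 0.0978 over all probe sets and 0.12 over the 10364 named genes. At an unadjusted p under 0.05 there were 743 probe sets above zero (3.99%) and 313 below (1.68%), and at gene level 353 above (3.41%) and 220 below (2.12%). The excess of positive values depends on the scaling: after quantile normalization the same counts were 485 and 432. Without the block 0 probe sets were called, and 274 had an unadjusted p under 0.05. All values below are therefore descriptions of these 8 arrays, and no gene is said to have responded differently.

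The letters give each double difference once more from arrays that are not shared. Over the 10364 genes the values in letter A and letter B had a Pearson correlation of 0.0826, across genes, which are not independent replicates, and in 4708 genes the sign was opposite. A value of at least 1 in the same direction in both letters was reached by 131 genes above zero (1.26%) and 92 below (0.888%), while 155 reached that size with opposite signs. The same counts for probe sets were 322 above (1.73%) and 159 below (0.854%), with 375 of opposite sign. Genes that reached it in both letters were dim: 70.2% of those above zero and 78.3% of those below had a mean under the 60th percentile of signal, against 25.4% of all genes tested. The scatter of the letters shows a round cloud, in which the genes named below lie in the outer upper right and lower left.

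**Figure D1:**
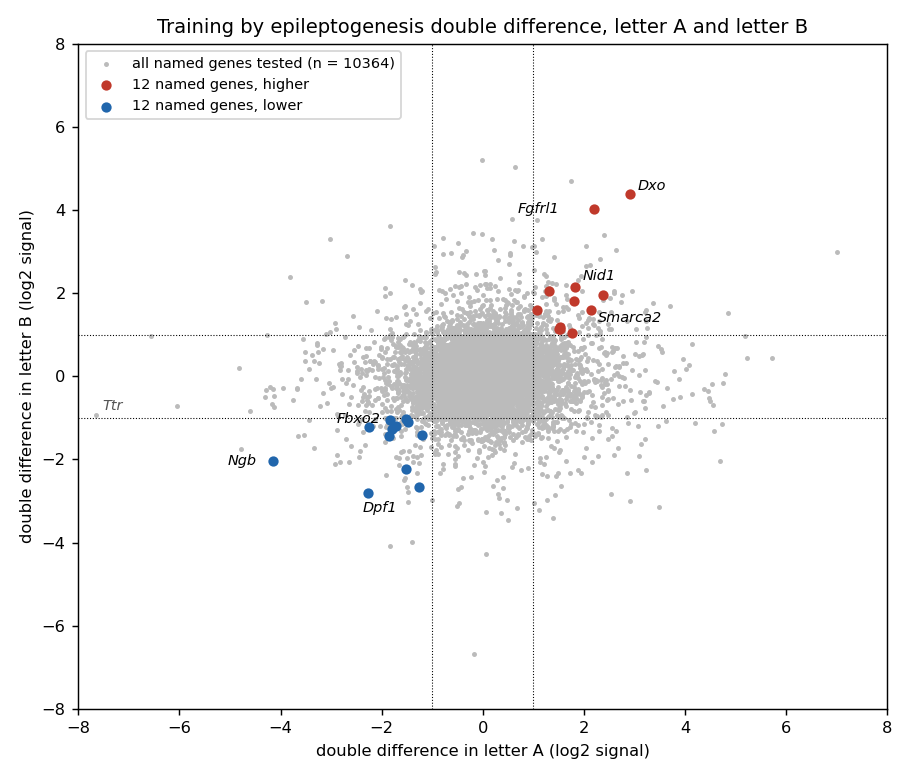
Double difference of each of 10364 genes in letter A (x axis) and letter B (y axis), in log2 signal, with the 12 named genes of each direction in red (higher) and blue (lower). Dotted lines mark 1 and -1, the cloud has a Pearson correlation of 0.0826, and Ttr lies far to the left at -7.65 in letter A but -0.92 in letter B.

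Among genes of that size in both letters, the smallest p in the positive direction belonged to Nid1 and Smarca2, both with an adjusted p of 0.12. Nid1 (probe set 1371518_at), which encodes nidogen-1, a basement membrane glycoprotein, had signals of 421 and 445 in unpaired controls, 194 and 171 in paired controls, 556 and 464 in unpaired epileptogenic rats and 911 and 799 in paired epileptogenic rats. The paired controls were the lowest arrays and the paired epileptogenic arrays the highest, with no overlap between either pair of groups. This gave a double difference of 2.00 ± 0.25 (SE), with 1.83 in letter A and 2.16 in letter B. A dimmer Nid1 probe set gave 0.95 ± 0.38 (SE). Smarca2 (probe set 1376337_at) encodes BRM, an ATPase of the SWI/SNF chromatin remodelling complex. Its signals were 5082 and 3681 in unpaired controls, 2312 and 2548 in paired controls, 2343 and 1732 in unpaired epileptogenic rats and 4683 and 3657 in paired epileptogenic rats. Pairing went with the lower signals in controls and with the higher signals in epileptogenic rats, again without overlap. The value over both letters was 1.87 ± 0.24 (SE), with 2.14 in letter A and 1.61 in letter B, and the other Smarca2 probe sets gave 1.13 ± 0.44 (SE) and 0.77 ± 0.70 (SE). When a gene's probe sets were averaged, the double differences were 1.47 for Nid1 and 1.26 for Smarca2. Over all alternatives the adjusted p ran from 0.0705 to 1 for Nid1 and from 0.0504 to 1 for Smarca2.

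Klf5, a zinc finger transcription factor of the Krüppel-like family, had signals of 1693 and 1540.3 in unpaired controls, 1053 and 1155 in paired controls, 633 and 734 in unpaired epileptogenic rats and 1142 and 1221 in paired epileptogenic rats. All 8 values show the same crossing, with unpaired controls highest and unpaired epileptogenic rats lowest. The double difference was 1.34 ± 0.23 (SE) at an adjusted p of 0.695, and 0.75 and 0.25 by the other Klf5 probe sets. Dock3, an activator of the GTPase Rac in neurons, also had unpaired controls highest and unpaired epileptogenic rats lowest, with signals of 607 and 680.3 in unpaired controls, 496 and 511 in paired controls, 164 and 288 in unpaired epileptogenic rats and 458 and 445 in paired epileptogenic rats. Its double difference was 1.41 ± 0.32 (SE). Bsn, which encodes the active zone scaffold Bassoon, had 936 and 1081 in unpaired controls, 635 and 516 in paired controls, 258 and 349 in unpaired epileptogenic rats and 501 and 369.6 in paired epileptogenic rats. Controls were above epileptogenic rats on every array, and the double difference was 1.33 ± 0.33 (SE). In letter A the rise with pairing in epileptogenic rats was its larger part, and in letter B the fall with pairing in controls. Neto1, an auxiliary subunit of kainate receptors, gave 1.68 ± 0.44 (SE) from signals of 56.1 and 100.04 in unpaired controls, 48.3 and 60.0 in paired controls, 27.3 and 37.0 in unpaired epileptogenic rats and 57.9 and 92.5 in paired epileptogenic rats. In both letters the unpaired epileptogenic array was the lowest of the 4. The adjusted p of Dock3, Bsn and Neto1 was 0.866.

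The other genes named in the positive direction were mostly dimmer. Fgfrl1, an FGF receptor family member without the kinase domain, gave 3.12 ± 0.60 (SE), with signals of 45.6 and 27.9 in unpaired and 222 and 125 in paired epileptogenic rats. Its control signals were 73.8 and 118 unpaired and 78.3 and 32.3 paired, so that the direction in controls was carried by letter B. Dxo, a decapping exonuclease, gave 3.65 ± 0.77 (SE), but its means in paired controls and unpaired epileptogenic rats lay below the level of the filter, a signal of 20.3. Nradd, a death domain receptor related to the p75 neurotrophin receptor, gave 1.35 ± 0.26 (SE), and its other probe set gave -0.42. Cd244l1 gave 2.17 ± 0.42 (SE), Agmat (agmatinase, which splits agmatine) 1.81 ± 0.44 (SE) and Ttc7b, a partner of phosphatidylinositol 4-kinase, 1.33 ± 0.33 (SE). The adjusted p of these 6 genes was between 0.813 and 0.866.

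**Figure D2:**
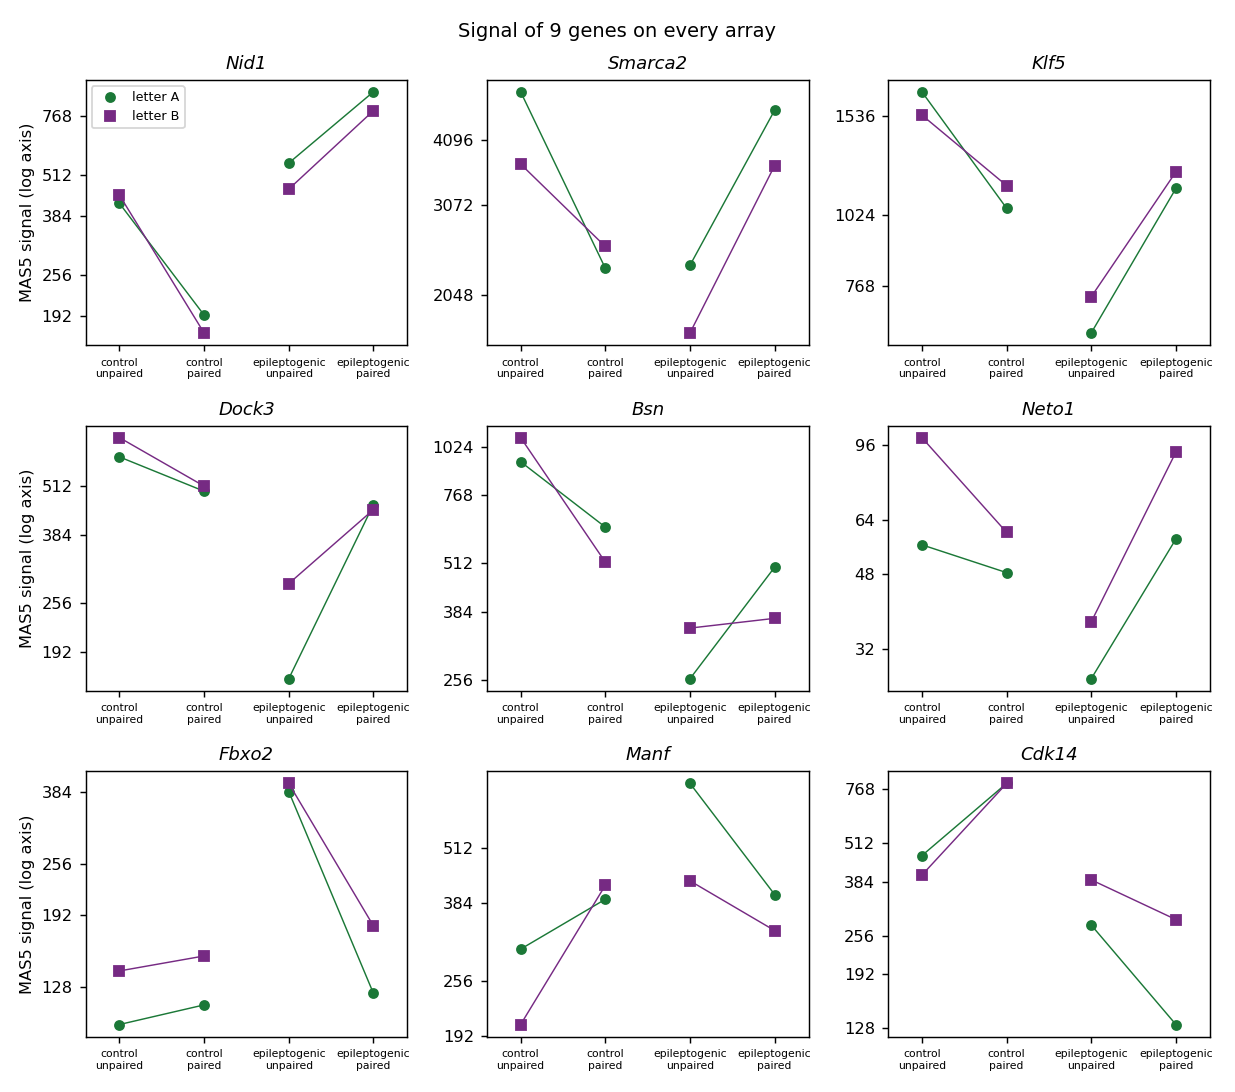
MAS5 signal (y axis, log scale) of 9 named genes on each array by group (x axis), with letter A as circles and letter B as squares, and lines joining unpaired to paired training within a letter. In Nid1 and Smarca2 both letters slope down in controls and up in epileptogenic rats, and in Manf and Cdk14 the slopes are the other way round.

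In the negative direction the smallest p belonged to Fbxo2, which encodes a neuronal F-box protein that targets glycoproteins for ubiquitination. Its signals were 104 and 140.3 in unpaired controls, 116 and 153 in paired controls, 385 and 403 in unpaired epileptogenic rats and 124 and 181 in paired epileptogenic rats. The unpaired epileptogenic arrays stood alone at the top, and each paired epileptogenic array lay slightly above the control arrays of its letter. This gave a double difference of -1.54 ± 0.31 (SE) at an adjusted p of 0.813. Manf, a neurotrophic factor of the endoplasmic reticulum that is induced by protein folding stress, had signals of 302 and 204 in unpaired controls, 391 and 421 in paired controls, 715 and 431 in unpaired epileptogenic rats and 401 and 333 in paired epileptogenic rats. The slope was up with pairing in controls and down in epileptogenic rats in both letters, for a double difference of -1.31 ± 0.32 (SE). Cdk14, a cyclin-dependent kinase, had 467 and 403 in unpaired controls, 804 and 803 in paired controls, 277 and 389 in unpaired epileptogenic rats and 131 and 289 in paired epileptogenic rats. Here paired controls were the highest arrays, and the double difference was -1.64 ± 0.41 (SE). Manf and Cdk14 had an adjusted p of 0.866.

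Ngb, which encodes neuroglobin, an oxygen-binding globin of neurons, gave the most negative value of the 12 genes, -3.10 ± 0.73 (SE). It rests on dim signals: 44.8 and 35.5 and 161 and 63.7 in unpaired and paired controls, 33.5 and 23.1 in unpaired epileptogenic rats, and 6.78 and 10.1 in paired epileptogenic rats, which is below the filter level. Dpf1, a neuronal subunit of the SWI/SNF complex, gave -2.54 ± 0.68 (SE) and was likewise below the filter level in paired epileptogenic rats. Lonp1, the mitochondrial matrix protease, gave -1.45 ± 0.39 (SE), Gfus, the GDP-fucose synthase, -1.47 ± 0.38 (SE), and Alad, an enzyme of haem synthesis, -1.27 ± 0.38 (SE). Dkc1 (dyskerin, of small nucleolar RNPs) gave -1.29 ± 0.39 (SE), Cryl1 -1.73 ± 0.52 (SE), Arhgap30 -1.88 ± 0.58 (SE) and MGC116197 -1.96 ± 0.56 (SE). The adjusted p of the 9 genes from Ngb on was between 0.866 and 0.868.

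Crossed slopes are frequent among the genes chosen for size in both letters. All 4 training effects (2 letters in each rat group) had opposite signs between control and epileptogenic rats in 86 of the 131 positive and 48 of the 92 negative genes. Over all genes this was so in 840 toward higher values in epileptogenic rats (8.1%) and 721 toward lower (6.96%). The choice by size raises these shares by itself, and nothing is read from them.

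The training effects that make up the double difference did not pass either. Paired minus unpaired in controls gave 0 called probe sets (0%, smallest adjusted p 0.262), with 225 above (1.21%) and 694 below zero (3.73%) at an unadjusted p under 0.05. Paired minus unpaired in epileptogenic rats gave 0 called probe sets (0%, smallest adjusted p 0.847), with 535 above (2.87%) and 398 below (2.14%). The correlation of letter A with letter B across genes was 0.0443 for the effect in controls and 0.0233 for that in epileptogenic rats. The direction in controls depends on the scaling, with 401 above and 458 below after quantile normalization. Leaving out the paired control array of letter B brought 3 probe sets under the threshold in controls and 1 for the interaction. These were Scn7a, Serping1 and Cd68 in controls and Scn7a for the interaction, and all rest on the paired control array of letter A, whose signals of 6.34, 11.8 and 1.62 compare with 86.0, 71.0 and 24.6 in letter B.

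Functions were described by 51 gene lists with 1238 tested genes, 36 of which had a median above zero, beside a median over all genes of 0.02 (0.01 in letter A, 0.04 in letter B). For reference, 51.8% of all genes were above zero, 29.1% above zero in both letters and 25.5% below zero in both. The median of a list had the same sign in both letters in 25 of the 51 lists. No list member passed the test across all probe sets, so the counts below are of signs, of sizes and of unadjusted p under 0.05.

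Activity-regulated transcription factors, the genes most often used to trace fear conditioning, had no member past the test at 3 h. Of 20 tested members of the immediate early list, 13 were above zero, 9 of them in both letters, and the median was 0.23. That median was 0.04 after quantile normalization and 0.04 without the unpaired control array of letter B. Only Jund, a component of the AP-1 complex, had an unadjusted p under 0.05 (0.0224), with a double difference of 0.58 ± 0.22 (SE) and signals of 1908 and 1503 in unpaired controls, 1349 and 1209.9 in paired controls, 1627 and 1183 in unpaired epileptogenic rats and 1803 and 1361 in paired epileptogenic rats. Fos, the classical activity marker, was 115 to 168 in controls and 703 and 346 in unpaired and 337 and 482 in paired epileptogenic rats. Every epileptogenic array was above every control array, but the letters crossed, at -1.12 and 0.34, for a double difference of -0.39 ± 0.49 (SE) at an adjusted p of 0.924. Egr1, a zinc finger factor needed in the amygdala for fear memory, had 3585 and 3073 in unpaired controls, 2807 and 2947 in paired controls, 3163 and 2036 in unpaired epileptogenic rats and 3179.8 and 2314 in paired epileptogenic rats. Its double difference was 0.30 ± 0.25 (SE) at an adjusted p of 0.886. Egr2 gave 0.79 ± 0.40 (SE) and Fosl1 1.28 ± 0.61 (SE), the latter below the filter level in unpaired epileptogenic rats.

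Effector genes downstream of activity were mixed. Of 25 tested, 16 were above zero and the median was 0.18. It was 0.04 after quantile normalization and 0.01 without the paired epileptogenic array of letter A. Nrn1, which encodes neuritin, a surface protein that promotes neurite growth and synapse stability, had 1709.6 and 1538 in unpaired controls, 1221 and 1247 in paired controls, 1002 and 848 in unpaired epileptogenic rats and 1179.9 and 1149 in paired epileptogenic rats. The value over both letters was 0.73 ± 0.22 (SE), nearly equal in both letters (0.72 and 0.74). Dusp6, a phosphatase of ERK, gave 0.53 ± 0.23 (SE), its other probe sets 0.87 and -0.28. Scg2 (secretogranin II, a neuropeptide precursor of dense-core vesicles) went the other way with -1.03 ± 0.36 (SE), but mostly in letter A (-1.68 against -0.37). Vgf, a further peptide precursor and the only member to reach 1 in both letters, gave -1.42 ± 0.61 (SE) and is named after its values were seen. Arc was dim, at 17.2 to 63.0, with 0.41 ± 0.76 (SE), and Bdnf, the neurotrophin of amygdala plasticity, gave -0.35 ± 0.49 (SE). The adjusted p was 0.868 for Nrn1, Dusp6 and Scg2, 0.949 for Arc and 0.932 for Bdnf.

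**Figure D3:**
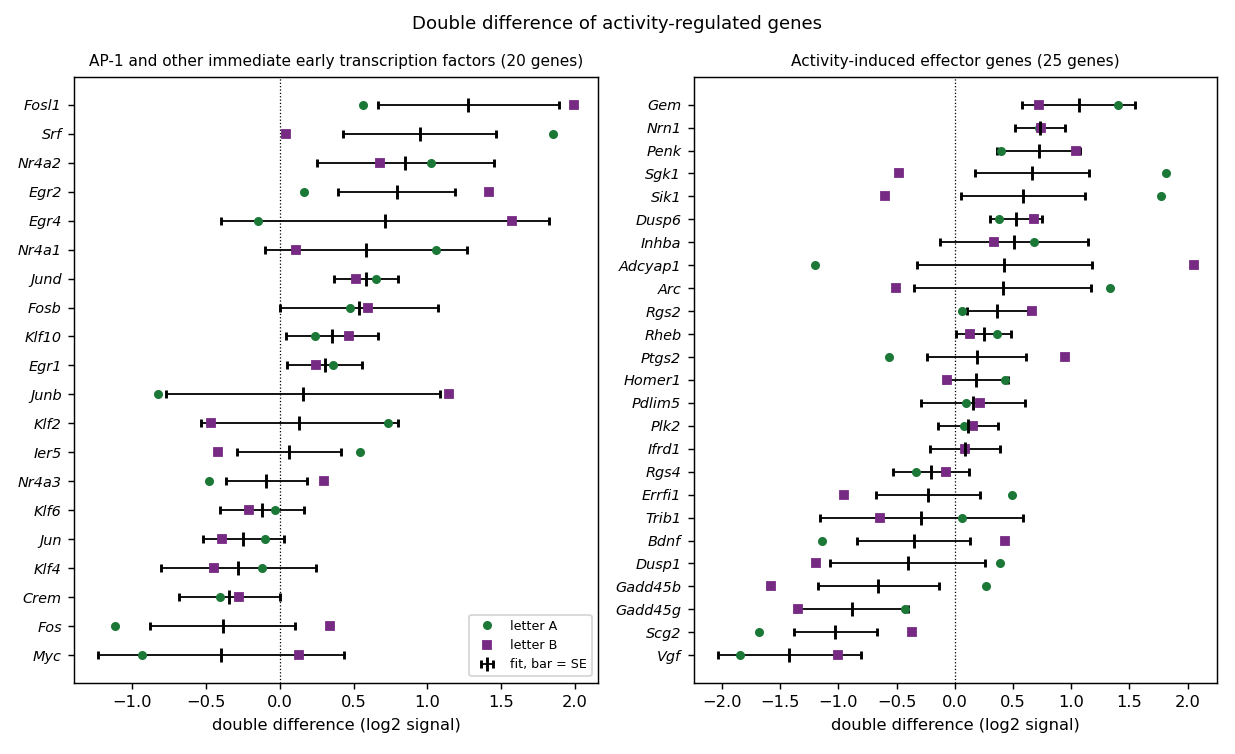
Double difference (x axis, log2 signal) of the 20 tested immediate early transcription factors (left) and the 25 tested effector genes (right), with the fitted value and its SE in black and each letter as a circle (A) or square (B). The dotted line marks zero, and the letters of Fos, Junb, Arc and Bdnf, among others, lie on opposite sides of zero.

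Signalling enzymes of fear learning had a median of 0.15 over 37 tested genes, with 22 above zero. The median was -0.0035 after quantile normalization and -0.03 without the unpaired epileptogenic array of letter B. Prkcb, the beta isoform of protein kinase C, had signals of 3205 and 3148 in unpaired controls, 2492 and 2921 in paired controls, 2257 and 1755 in unpaired epileptogenic rats and 2655 and 2344 in paired epileptogenic rats and a double difference of 0.56 ± 0.24 (SE), with 1.03 and -0.30 by its other probe sets. Prkaca, the catalytic subunit of protein kinase A, gave 0.94 ± 0.42 (SE), and Cdk5, a neuronal kinase, -0.80 ± 0.35 (SE). The stress and clock lists gave no member with both a size of 1 in each letter and an unadjusted p under 0.05. Corticosteroid and CRH genes split by letter, with medians of 0.75 in letter A and -0.60 in letter B, and Crh itself gave 0.59 ± 0.75 (SE) at dim signals of 15.6 to 42.7. Per1 gave 0.99 ± 0.57 (SE). In the 34 heat shock and oxidative stress genes the median was negative, -0.17, with 10 above zero. Gpx4, the peroxidase that reduces lipid peroxides, had 350.2 and 357 in unpaired controls, 463 and 474 in paired controls, 554 and 411 in unpaired epileptogenic rats and 397 and 215 in paired epileptogenic rats and a double difference of -1.11 ± 0.34 (SE). Hsph1, a co-chaperone of the Hsp70 system, was 0.61 ± 0.20 (SE) (0.11 by a dimmer probe set), and Pdia4, a protein disulfide isomerase, -0.79 ± 0.33 (SE).

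The list of AMPA and kainate receptors and auxiliary subunits had a median of 0.58 over 13 tested genes, 9 of them above zero and 5 above zero in both letters. Besides the receptor subunits it holds Cnih2, Cacng2, Grip1, Grip2, Pick1 and Nsf. Taken by letter, however, the medians were -0.01 and 0.40, and the median was 0.28 without the paired control array of letter B. Gria2, the subunit that limits calcium entry, had 4449 and 3486 in unpaired controls, 2947 and 3022 in paired controls, 1575 and 2301 in unpaired epileptogenic rats and 2048 and 2616 in paired epileptogenic rats. Epileptogenic rats were below controls on every array, and the double difference was 0.68 ± 0.29 (SE), with 0.33 by its other probe set. Gria3 had 1047 and 1693 in unpaired controls, 929 and 1416 in paired controls, 439.5 and 566 in unpaired epileptogenic rats and 676 and 752 in paired epileptogenic rats and gave 0.73 ± 0.25 (SE), with 0.67 by the other probe set. Grik2, a kainate subunit, gave 0.58 ± 0.27 (SE). Among 10 NMDA and metabotropic receptor genes the median was 0.08, with Grin3a at -2.17 ± 0.99 (SE) (below the filter level in paired epileptogenic rats) and Grm5 at 0.46 ± 0.32 (SE). Among 11 genes of the GABA receptor list, which also holds Gabarap, Gabarapl1 and Gphn, 5 were above zero and the median was -0.03. Gabarapl1 gave -0.54. Gabra2 (0.73 ± 0.27 (SE)) and Gabra5 (0.76 ± 0.32 (SE)), which form synaptic and extrasynaptic GABA-A receptors, had unadjusted p of 0.0218 and 0.0393.

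Several neuronal lists leaned to positive values, and so did the 2073 brightest genes, with a median of 0.107 (0.088 in letter A and 0.125 in letter B) against -0.052 to 0.061 in the 4 dimmer classes of about that size. Leaving out 1 array moved the median of 50 of the 51 lists by over 1.5 times, so that the medians are loose. Of 26 tested sodium, calcium and HCN channel genes, 24 were above zero, 15 of them in both letters and 0 below zero in both, with medians of 0.26 in letter A and 0.49 in letter B. The overall median of 0.32 was 0.20 without the unpaired epileptogenic array of letter B, 0.40 without the paired epileptogenic array of letter A and 0.23 after quantile normalization. None of the members passed singly. Cacna2d1, the calcium channel subunit bound by gabapentin, had 286 and 766 in unpaired controls, 276 and 419.8 in paired controls, 101 and 188 in unpaired epileptogenic rats and 144 and 290.1 in paired epileptogenic rats. Its double difference was 1.03 ± 0.32 (SE). Itpr1 and Ryr2, the calcium release channels of the endoplasmic reticulum, gave 0.76 ± 0.33 (SE) and 0.48 ± 0.22 (SE), but a dimmer Ryr2 probe set gave -0.26 and the average of both 0.11. By its brighter probe set Ryr2 separated epileptogenic from control rats, at 586 to 896 against 1334 to 1812. Scn4b, the only member of at least 1 in both letters and also a striatal marker, is named after its values were seen. It ranged from 59.0 to 1373 and gave 1.44 ± 1.20 (SE).

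Potassium channel genes had medians of 0.43 in letter A and 0.32 in letter B over 31 tested, with 18 above zero, 15 of them in both letters, and 4 below zero in both. Their median of 0.24 was 0.09 without the unpaired epileptogenic array of letter B and 0.54 without the paired control array of letter B. Kcnc2, the Kv3.2 channel of fast-spiking neurons, had 817 and 927 in unpaired controls, 773 and 854 in paired controls, 456 and 399 in unpaired epileptogenic rats and 766 and 675 in paired epileptogenic rats. The unpaired epileptogenic arrays were the lowest, and the double difference was 0.85 ± 0.25 (SE). Kcnip4, an auxiliary subunit of Kv4 channels, gave 0.78 ± 0.28 (SE), and Kcnk3, a leak channel, 2.18 ± 0.75 (SE) at signals near the filter level. Among 19 chloride transporters and ion pumps 15 were above zero, 11 of them in both letters, and 1 was below in both. Slc12a5, the neuronal chloride exporter KCC2, had 2045 and 1325 in unpaired controls, 1497 and 1344 in paired controls, 843 and 546 in unpaired epileptogenic rats and 1295 and 681 in paired epileptogenic rats and gave 0.68 ± 0.27 (SE). Atp2b1, a calcium pump gene, gave 0.60 ± 0.26 (SE), with 0.42 and 0.06 by its other probe sets. The calcium pump gene Atp2a2 gave 0.51 ± 0.21 (SE) by its brightest probe set, but -0.03 when its probe sets were averaged.

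Synaptic lists had smaller medians, and scaffold and adhesion genes had more members above zero than below. The 30 vesicle and active zone genes had a median of 0.17, with 12 above and 6 below zero in both letters. Snap25, the SNARE protein of exocytosis, had 11186 and 6817 in unpaired controls, 8073 and 5908 in paired controls, 6571 and 4869 in unpaired epileptogenic rats and 8667 and 6019 in paired epileptogenic rats and gave 0.69 ± 0.19 (SE), which was 0.30 after quantile normalization. Sv2a, the vesicle protein bound by levetiracetam, went the other way. Its signals were 552 and 663 in unpaired controls, 957 and 859 in paired controls, 679.5 and 568 in unpaired epileptogenic rats and 448 and 441 in paired epileptogenic rats, with paired controls highest and paired epileptogenic rats lowest. The double difference was -1.07 ± 0.26 (SE) at an adjusted p of 0.866. Of the 26 postsynaptic scaffolds 20 were above zero, 13 above and 3 below zero in both letters. Their median was 0.19, and -0.04 without the unpaired epileptogenic array of letter B, with Lrrc7 (densin-180) at 1.72 ± 0.62 (SE), Ppp1r9b (spinophilin) at 1.05 ± 0.37 (SE) and Cnksr2 at 0.72 ± 0.32 (SE). Of the 44 adhesion and guidance genes 31 were above zero, 16 above and 3 below zero in both letters. Their median was 0.12, and 0.02 without that same array, with Epha7 at 1.40 ± 0.57 (SE) and Nrxn3 (neurexin-3) at 0.77 ± 0.32 (SE) (0.30 by its other probe set). In the 45 cytoskeletal genes the median was -0.02, with Dcx (doublecortin) at -0.999 ± 0.35 (SE) and Ank3 (ankyrin-G) at 0.60 ± 0.23 (SE). Among 35 regulators of small GTPases, Arhgap32 gave 2.20 ± 0.62 (SE) from 9.12 and 27.2 in unpaired and 57.5 and 59.6 in paired epileptogenic rats.

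The largest list median that also had similar size in both letters was that of striatal and central amygdala neuron markers. Of 19 tested, 17 were above zero and 16 were above zero in both letters, with a median of 0.77 (0.75 in letter A, 0.69 in letter B). Drd2, the D2 dopamine receptor, had 122 and 71.2 in unpaired controls, 40.3 and 51.1 in paired controls, 89.9 and 11.7 in unpaired epileptogenic rats and 129 and 53.9 in paired epileptogenic rats. It was lowest on the unpaired epileptogenic array of letter B, and the double difference was 2.40 ± 0.86 (SE). Pdyn, the dynorphin precursor, had 271 and 129 in unpaired controls, 157 and 88.4 in paired controls, 308 and 65.2 in unpaired epileptogenic rats and 355 and 183 in paired epileptogenic rats and gave 1.51 ± 0.46 (SE). Foxp1, a forkhead transcription factor, had 456 and 346 in unpaired controls, 259.5 and 249.8 in paired controls, 307 and 166 in unpaired epileptogenic rats and 590.2 and 249 in paired epileptogenic rats and gave 1.41 ± 0.39 (SE), with 3 of its 4 other probe sets positive and 1 at -0.79. The list median was 0.23 without the unpaired epileptogenic array of letter B and 1.02 without the paired control array of letter B.

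The mean log2 signal of the striatal list was 6.50 on that unpaired epileptogenic array of letter B, against 7.30 to 8.20 on the other 7. Single markers differed: Drd2, Adora2a, Rgs9 and Penk were lowest on that array, but Drd1 and Prkcd were not. Drd1 was 383 there, within 327 to 589 over all arrays, and Prkcd was 132, above the control arrays at 70.3 to 128. The same array was high for the meningeal list, 7.05 against 5.33 to 6.60 elsewhere, with Lum (lumican) at 445 and Col3a1 at 332, while Lum was 42.7 to 299 on the others. Gad1 was lowest there too, at 1487 against 2967 to 4690.1. The part of these other cells in the striatal, channel and GABAergic values was not tested. The meningeal list itself had medians of 0.58 in letter A and -0.78 in letter B.

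Principal neuron markers of the basolateral amygdala had a median of 0.37 over 19 tested genes, 10 above and 1 below zero in both letters. The letters were unequal, at 0.76 and 0.17, and the median was 0.13 without the paired control array of letter A and 0.77 without that of letter B. Mef2c, a transcription factor of excitatory neurons, was bright and had 10345 and 6401 in unpaired controls, 6496 and 5524 in paired controls, 6594 and 4357 in unpaired epileptogenic rats and 8615 and 5362 in paired epileptogenic rats. This gave a double difference of 0.78 ± 0.21 (SE) at an adjusted p of 0.866, and 0.85 ± 0.26 (SE) by its other probe set. After quantile normalization it was 0.33. Neurod2, a factor of the same lineage, was the opposite at -1.53 ± 0.63 (SE) and dim. GABAergic interneuron markers had medians of 0.05 and 0.46 over 13 genes, with Gad1 at 0.58 ± 0.29 (SE) and Npy at 0.32 ± 0.45 (SE). Nos1 gave 1.91, and Dlx1 went the other way at -0.765. Of 34 tested peptides and peptide receptors 23 were above zero, 13 above and 6 below zero in both letters. Their median was 0.32 (-0.0055 in letter A, 0.36 in letter B), and 0.10 after quantile normalization. Ntsr1, the high-affinity neurotensin receptor, went the other way at -2.03 ± 0.66 (SE), with unpaired controls at 14.5 and 7.28 (below the filter level) against 57.2 and 26.9 in paired controls. Htr4, a serotonin receptor, gave 1.45 ± 0.50 (SE) and was below the filter level in unpaired epileptogenic rats.

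**Figure D4:**
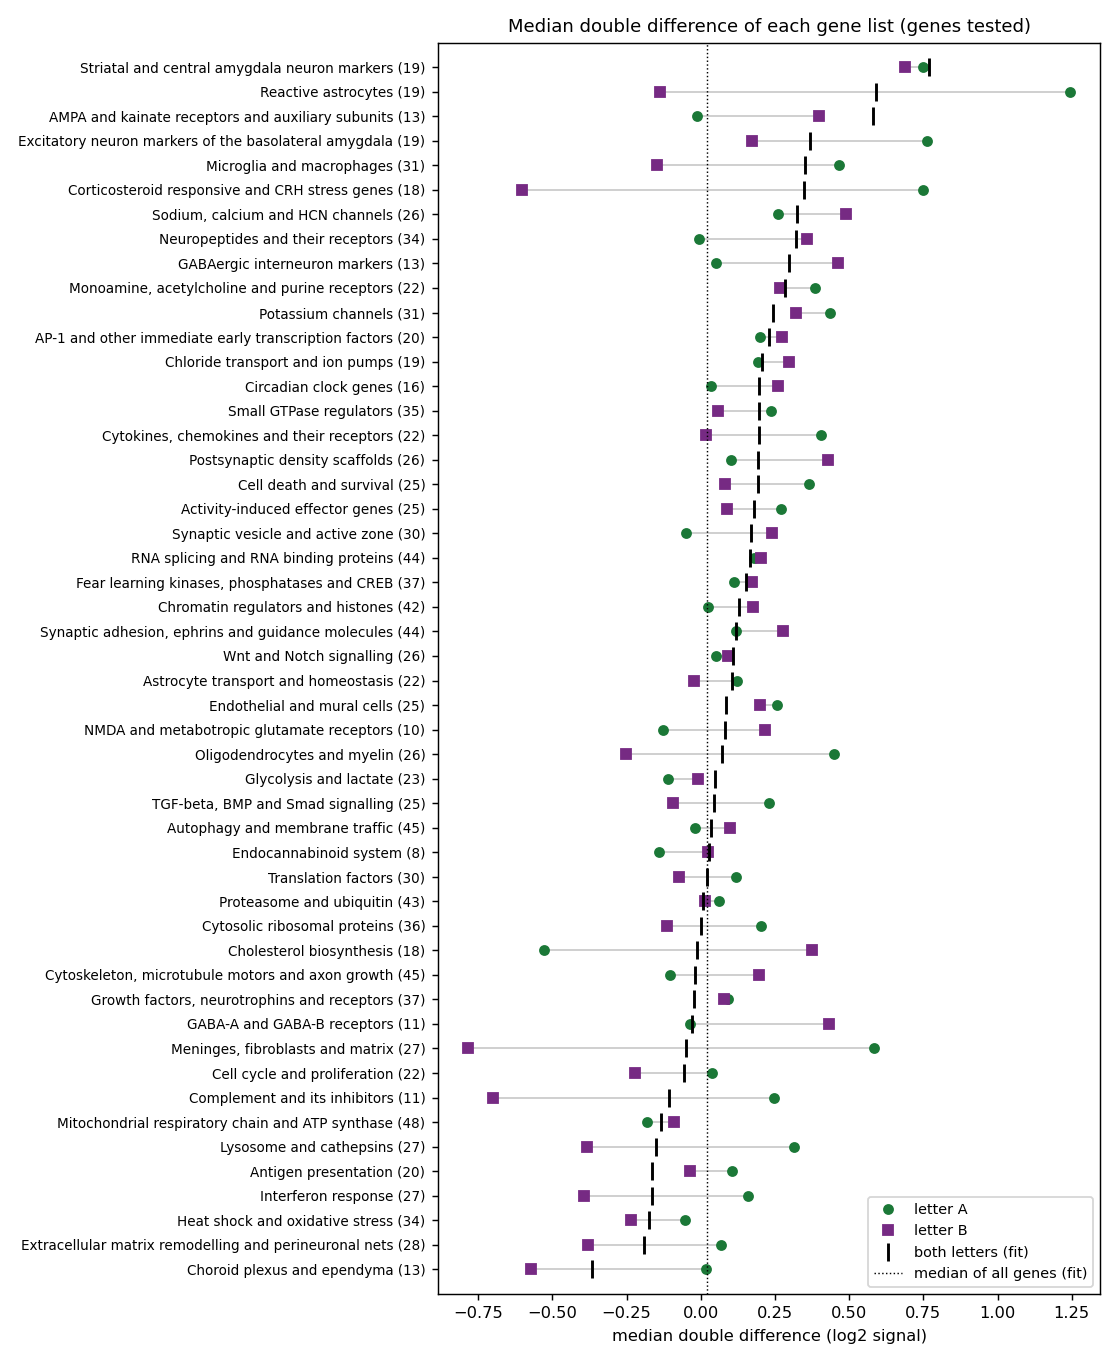
Median double difference (x axis, log2 signal) of the 50 lists with at least 5 tested genes, in letter A (circles), letter B (squares) and the fit over both (black marks), with the number of tested genes in brackets. The striatal list has both letters above 0.6, whereas reactive astrocyte, meningeal, corticosteroid and complement genes have letters on opposite sides of zero.

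Medians of opposite sign in the letters were found in 8 of the 9 glial and immune lists. Reactive astrocyte genes had a median of 1.25 in letter A and -0.14 in letter B over 19 tested. Gfap, the astrocyte intermediate filament, had 893 and 583 in unpaired controls, 260.3 and 658 in paired controls, 4543 and 3844 in unpaired epileptogenic rats and 3383 and 3847 in paired epileptogenic rats. Every epileptogenic array was above every control array, but the paired control array of letter A was the lowest of all, and the double difference was 0.59 ± 0.51 (SE) at an adjusted p of 0.886. Without that array it was -0.19. Microglia and macrophage genes had medians of 0.47 and -0.15 over 31 tested, and on the paired control array of letter A the list mean was 5.50 against 5.96 to 6.32 on the other control arrays. Cybb, the NADPH oxidase subunit of phagocytes, had 101 and 131 in unpaired controls, 16.7 and 51.7 in paired controls, 121 and 303 in unpaired epileptogenic rats and 119 and 184 in paired epileptogenic rats and gave 1.59 ± 0.46 (SE). C1qa, of the complement C1q complex, had 282 and 376 in unpaired controls, 276 and 347 in paired controls, 1918 and 2883 in unpaired epileptogenic rats and 1334 and 1079 in paired epileptogenic rats. Both letters were negative, and the double difference was -0.90 ± 0.31 (SE). The part of that 1 control array in the glial values was not tested beyond leaving it out.

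Single members of these lists lay on the same side of zero in both letters. Cxcl16, a chemokine of macrophages, gave 1.41 ± 0.47 (SE), and Lamp2, a lysosomal membrane protein, had 2216 and 1426 in unpaired controls, 1354 and 1187 in paired controls, 2321 and 2244 in unpaired epileptogenic rats and 3150.1 and 3121 in paired epileptogenic rats for 0.95 ± 0.25 (SE). The other Lamp2 probe set, also bright, gave 0.18 ± 0.22 (SE), and the average of both 0.56. In the lysosome list 9 of 27 tested genes were above zero, 3 above and 6 below zero in both letters. The median of that list was -0.15, with 0.31 in letter A and -0.38 in letter B. Of 27 interferon genes 12 were above zero, 8 above and 7 below zero in both letters. Their medians were 0.16 in letter A and -0.39 in letter B. Oas1a gave -2.44 ± 0.81 (SE), with unpaired controls at 4.66 and 7.62, below the filter level. Slfn4 gave -2.10 and Isg15, named after its values were seen, -1.72 ± 0.71 (SE), whereas Ddx60 gave 2.46. Of 20 antigen presentation genes 8 were above zero, 6 above and 6 below zero in both letters. The median of that list was -0.16, with 0.10 in letter A and -0.04 in letter B. RT1-Ba, a class II histocompatibility gene, gave 3.22 ± 1.36 (SE), but its 3 other probe sets ranged from -0.73 to 2.31. Cd74, the invariant chain, gave 0.75 ± 1.03 (SE), whereas RT1-M3-1 of the same list gave -1.002. Bcan (brevican), a proteoglycan of perineuronal nets, had 449 and 301 in unpaired controls, 600.1 and 398 in paired controls, 728 and 644 in unpaired epileptogenic rats and 528 and 418 in paired epileptogenic rats. The value over both letters was -0.95 ± 0.26 (SE), although a dimmer probe set gave 0.53. Timp2, an inhibitor of metalloproteinases, gave -0.72 ± 0.28 (SE). The choroid plexus and ependyma list had a median of -0.37, with 0.02 in letter A and -0.57 in letter B. Without the paired epileptogenic array of letter B the median was 0.15. Of its 13 tested genes 5 were above zero, among them Foxj1 at 1.28. The list held the most negative value of all lists, Ttr at -4.29 ± 1.22 (SE). Ttr signals were 151 and 5067 in unpaired controls, 3439 and 3995 in paired controls, 2649 and 4883 in unpaired epileptogenic rats and 301 and 2033 in paired epileptogenic rats. Low Ttr on 2 letter A arrays, unpaired control and paired epileptogenic, makes up most of that value.

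**Figure D5:**
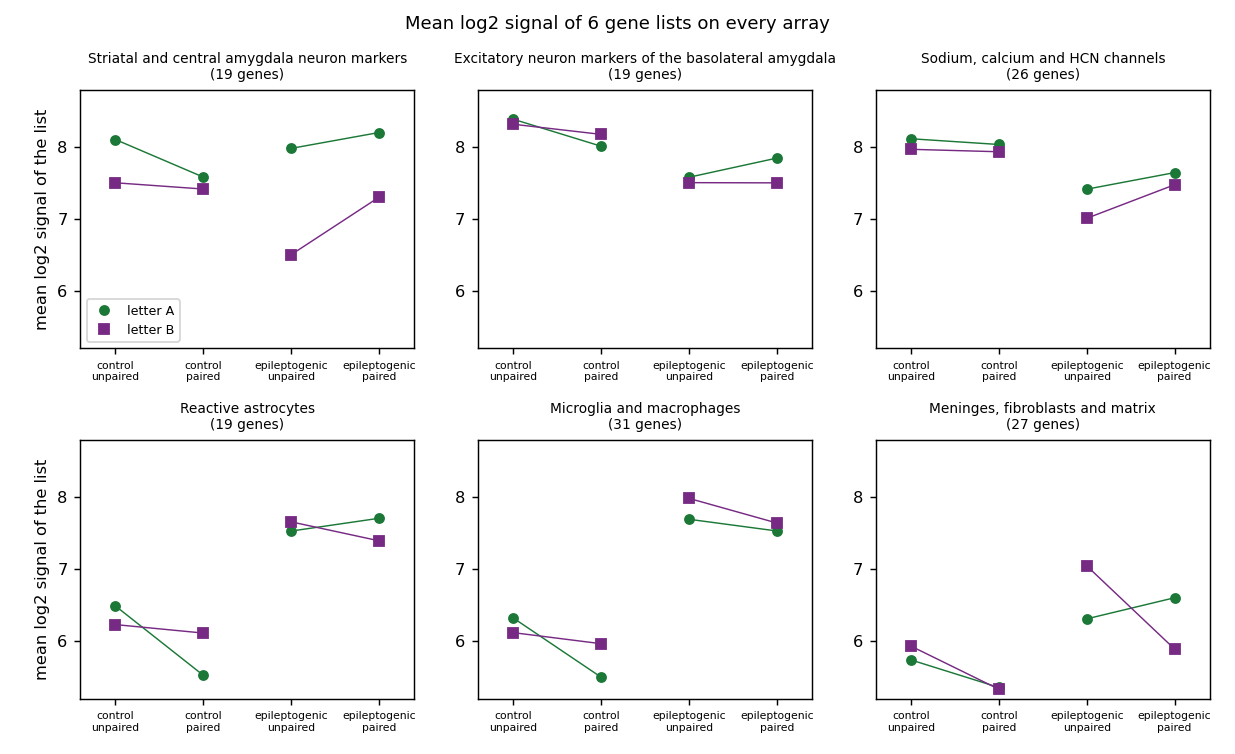
Mean log2 signal (y axis) of 6 gene lists on each array by group (x axis), letter A as circles and letter B as squares, with lines joining unpaired to paired training within a letter. The unpaired epileptogenic array of letter B is low for striatal markers (6.50) and high for meningeal genes (7.05), and the paired control array of letter A is low for reactive astrocyte and microglial genes (5.52 and 5.50).

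Housekeeping functions had list medians between -0.14 and 0.17. The 48 tested genes of the respiratory chain and ATP synthase had a median of -0.14, with 8 above and 18 below zero in both letters. Atp5f1d, a subunit of the ATP synthase, had 314 and 266 in unpaired controls, 440.2 and 332 in paired controls, 526 and 244 in unpaired epileptogenic rats and 325 and 149.7 in paired epileptogenic rats and gave -1.11 ± 0.36 (SE), and Sdhb, of complex II, gave -0.71 ± 0.27 (SE). Proteasome genes had a median of 0.01 over 43 tested, with Psmb4 at -0.51 ± 0.21 (SE). Cytosolic ribosomal proteins had 18 of 36 above zero, with Rps28 at 1.18 ± 0.33 (SE) and Rpl12 at -0.76 ± 0.28 (SE), and pseudogene copies can share their signal. RNA splicing and binding genes were more one-sided: 33 of 44 were above zero, 22 above and 5 below zero in both letters, with medians of 0.18 and 0.20. After quantile normalization their median was 0.06. Srsf1, a splicing factor, had 2344 and 2248 in unpaired controls, 1517 and 1621 in paired controls, 2108 and 2118 in unpaired epileptogenic rats and 2317 and 2949 in paired epileptogenic rats and gave 0.86 ± 0.22 (SE), although its other probe set gave -0.02. Among 42 chromatin genes with a median of 0.13, Smarca2 was followed by Tet3, a DNA demethylase, at 0.82 ± 0.32 (SE) and -0.24 by its other probe set. Glycolysis and cholesterol synthesis had medians of 0.05 and -0.01.

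RNA integrity was read from the control probe sets. The 3' to 5' ratio, on the log2 scale, was 3.09 to 4.19 over the arrays for Gapdh and 1.87 to 4.45 for beta-actin. For both, the 3' probe set was thus the brighter on every array. The double difference of the Gapdh ratio was 0.02 in letter A and -0.24 in letter B, and that of the beta-actin ratio -1.90 and 0.76. These are of opposite sign in the letters. The double difference of the hexokinase ratio was negative in both, at -2.13 and -3.07, with the ratio highest on the paired control array of each letter. Its 3' and 5' probe sets had signals of 1.53 to 15.1, below the filter level on every array. The part of these ratios in the results was not tested.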

How the data were processed

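The data are Affymetrix Rat Genome 230 2.0 arrays of laser-microdissected amygdala, 4 groups of 2 arrays. The deposited values are MAS5 intensities, linear and per the labels without a stated version or scaling target. They were used as log2 of the deposited intensity, not normalized again. Leaving out 57 control probe sets, the filter kept 18625 of 31042, those with a mean over a signal of 20.3 (log2 4.35, the 40th percentile). Probe sets with 1 symbol in the platform annotation (20826; 436 had several, 9780 none) were named, with the probe set of highest mean standing for its gene.

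The interaction was fitted with limma 3.58.1 in R 4.3.3: 4 group means, the letter as a block, an intensity trend in the prior variance (3 residual and 6.83 prior degrees of freedom), and two-sided tests adjusted by Benjamini-Hochberg over all tested probe sets at 0.05. Letters were kept as a block because deviations from group means correlated between same-lettered arrays in all 6 pairs of groups (r 0.321 to 0.407). P-values measure the spread between these arrays, which the labels call biological replicates. The scripts were tested on simulated data. Figures used matplotlib 3.10.9 in Python 3.11.15.

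Named genes are the 12 with the smallest p in each direction among those with a double difference of at least 1 and the same sign in both letters, at most 3 members of each list with the smallest p, and 10 genes fixed by name. Other genes are tissue markers, were called in an alternative, or are said to be named after their values were seen. The lists and the question were chosen with earlier results of these data known. Alternatives were other scalings, offsets, filters, variance models, probe set averages and leaving out each array. Sequences and genome positions were not used here.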

Additional observations from a re-analysis of the deposited data

How the results depend on the processing

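With 0 interaction calls as fitted, 15 of 17 alternatives also gave 0. The calls for the interaction numbered 0 without the replicate block (no paired letter in the fit), with the smallest adjusted p at 1, 1 for log2(signal + 16), an unnamed probe set (1397792_at, adjusted p 0.0496), and 0 to 1 when an array was left out. The training effect gave 0 to 3 calls in controls and 0 to 1 in epileptogenic rats when an array was left out, and 0 under every other alternative. The single call in epileptogenic rats, Dzip3 by a second probe set, appeared without the unpaired array of letter B. The 223 genes of at least 1 in both letters became 75 with log2(signal + 16) and 59 above the 60th percentile, since both shrink or remove dim genes, and 218 to 231 under the other settings that allow it. Letters cannot be compared once an array is left out. Probe sets with an unadjusted p under 0.05 numbered 567 without the unpaired control array of letter A and 1543 without the unpaired epileptogenic array of letter B, against 1056 with all arrays.

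The 24 genes named by size in both letters kept their sign in all 17 alternatives. They were chosen for the same sign and size in both letters of these arrays. Keeping the sign was thus largely fixed by the choice, and nothing is read from it. Averaging probe sets reversed Atp2a2 (-0.0296), Ank3 (-0.055), Glul (-0.55) and Atg7 (0.14). Leaving out single arrays gave ranges that cross zero for Arc (-0.33 to 1.15), Bdnf (-0.93 to 0.22), Fos (-1.13 to 0.36), Npy (-0.29 to 0.94), Gfap (-0.19 to 1.37), Cd74 (-0.83 to 2.33), Slc17a7 (-0.0026 to 1.89), Pdk4 (-0.14 to 3.39) and Hbb (-1.32 to 2.10). Quantile normalization turned the sign of 10 of 51 list medians and median centring that of 3, and 22 lists kept their sign under these, the offset, probe set averages and every array left out.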

Other observations

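The smallest p of the whole array belonged to a probe set without a gene symbol in the annotation, 1397792_at. Its signals were 209 and 77.5 in unpaired controls, 62.0 and 19.5 in paired controls, 156 and 55.6 in unpaired epileptogenic rats and 345 and 178 in paired epileptogenic rats. In each letter the paired control array was the lowest and the paired epileptogenic array the highest, and the double difference was 3.28 ± 0.37 (SE) at an adjusted p of 0.0978, between 2.90 in letter A and 3.66 in letter B. A second unnamed probe set, 1371867_at, was bright, with signals of 1314 and 1316 in unpaired controls, 550.4 and 509 in paired controls, 1596 and 1487 in unpaired epileptogenic rats and 1984 and 1303 in paired epileptogenic rats. Its double difference was 1.37 ± 0.26 (SE) at an adjusted p of 0.813. Which transcripts these probe sets measure was not examined here.

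The correlation between letters stayed low when only brighter genes were taken: over the 7727 genes with a mean above the 60th percentile it was 0.101, across genes.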
